A study of Homo sapiens with 6 samples.

Results

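The genes described here are 10 desmosome genes, taken as the rows of the deposited expression table whose symbol is DSG1, DSG2, DSG3, DSC2, DSC3, DSP, JUP, PKP1, PKP2 or PKP3, out of 60671 genes in the table. The RNA came from HaCaT, an immortalised human keratinocyte cell line that the labels give as wild type. In the IFN-beta group (3 libraries), subconfluent cells were held for 24 h in serum-free high-glucose DMEM with interferon beta, a type I interferon, at 160 ng/mL. In the control group (3 libraries), cells spent the same time in that medium with no interferon added. Every library comes from 1 cell line grown in plates, and both groups lacked serum. Nothing in the labels tells whether the libraries of a group are separate cultures, and the p-values therefore cover the spread among these libraries, possibly technical, and no more.

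Desmosomes are the cell-cell junctions that tie the keratin filaments of neighbouring keratinocytes together, and they give the epidermis its resistance to shear. Their adhesive contacts are made outside the cell by 2 families of cadherins, the desmogleins (DSG genes) and the desmocollins (DSC genes). Inside the cell the cadherin tails bind the armadillo proteins plakoglobin (JUP) and the plakophilins (PKP genes), and desmoplakin (DSP) links these to keratin. Desmoglein 2 and desmocollin 2 are typical of simple and proliferating epithelium, desmoglein 3 and desmocollin 3 of the basal layers of epidermis, and desmoglein 1 of its differentiated upper layers.

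The comparison asks how the transcripts of this junction stood after a day of interferon. Of the 9 desmosome genes that could be tested, 1 was higher with IFN-beta (PKP2) and 4 were lower (PKP1, DSC3, DSC2 and DSG2), while DSP, JUP, PKP3 and DSG3 did not pass the test. All of these differences were small, from -0.30 to 0.24 on the log2 scale. The 5 genes called make up 55.6% of the 9, against 42.4% of all genes tested, and the 4 lower genes make up 44.4%, against 19.9% of all genes tested that were lower and 22.5% that were higher. With the test limited to 11759 genes at a mean of at least 2 FPKM (defined below), 5969 were called, 2922 of them lower. All 9 desmosome genes lay above that level, and no share was taken over genes of like level. The median size of change was 0.16 (log2) among the 9 genes and 0.19 among all 15163 genes tested, and the median change was -0.02 among the 9 genes and 0.01 among all genes tested. A fall in RNA per cell cannot be told apart from a fall in the share of cells that carry the transcript in these bulk libraries.

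Levels are FPKM as deposited by the authors, a level scaled for the length of the gene and for sequencing depth. The 6 libraries held between 25832158 and 30594527 reads, as recovered from the steps of the FPKM values, and each tested desmosome gene had between 2292 and 24880 reads in a library. Tests used limma on log2(FPKM + 0.5) over the 15163 genes with a mean of at least 0.5 FPKM, with a Benjamini-Hochberg adjusted p of 0.05 over all of them as the threshold. Across all genes the calls split into 53.2% higher and 46.8% lower, but 63.2% of calls were higher with libraries set to equal sums and 41.3% with quantile normalization. The interferon-induced genes MX1, IFIT1, ISG15 and OAS1 all passed the test in the direction of the labels, with log2 changes from 4.56 for OAS1 to 7.07 for MX1. All 6 keratinocyte markers were present, with summed levels between 2918 and 2983 FPKM in IFN-beta libraries and between 2985 and 3281 FPKM in control libraries. The lower sum came from KRT5 alone, at 951 to 981 FPKM in IFN-beta libraries and 1291 to 1453 FPKM in control libraries. KRT14, TP63, SFN, CDH1 and ITGB4 were each higher in every IFN-beta library than in any control library. Of the markers of other cell types, COL1A1 of 6 for fibroblasts, PMEL of 5 for melanocytes, CDH5 of 4 for endothelium and none of 4 for leukocytes reached a mean of 0.5 FPKM. DCN, MLANA, TYR and SOX10 were listed at 0 in every library. The endothelial sum lay between 2.12 and 2.22 FPKM in IFN-beta libraries and between 0.696 and 0.964 FPKM in control libraries, and its part in the results was not tested.

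DSG1 was close to undetected. This desmoglein of differentiated epidermis, the target of the exfoliative toxins and of pemphigus foliaceus autoantibodies, had 0, 1 and 0 reads in the IFN-beta libraries and 0 reads in each control library. A floor of 3 reads corresponds to between 0.0433 and 0.0499 FPKM in the IFN-beta libraries and between 0.0442 and 0.0513 FPKM in the control libraries, which covers counting error only. DSG1 therefore entered no test. The upper-layer cadherins DSC1 and DSG4, outside the 10 genes, reached at most 0.0177 and 0.132 FPKM in any library.

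Among the genes present, plakoglobin led in both groups. JUP averaged 436 ± 10.5 FPKM in IFN-beta libraries and 415 ± 36.2 FPKM in control libraries (SD, n = 3 each). In the IFN-beta libraries PKP3, DSG2, DSP and PKP1 followed in that order at 244, 174, 132 and 102 FPKM, each with a range above that of the next. PKP2, DSC3 and DSG3 lay together at 60.9, 59.5 and 57.7 FPKM, and the ranges of neighbours in that order overlapped. DSC2 was the lowest of the 9 at 8.66 ± 0.166 FPKM. In the control libraries PKP1 and DSP stood in the other order with overlapping ranges, and PKP2 lay under DSC3 and DSG3.

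These levels rest on the gene length behind the FPKM. The length recovered from the steps of the values was 1394 bases for JUP and 866 bases for PKP3, against 3497 and 2809 bases for their longest annotated transcripts. Across 13083 genes with more than 20 reads in every library, 80.4% had a recovered length within 5% of the mean length of all their annotated transcripts, and 10.9% within 5% of the longest transcript. JUP has 12 annotated transcripts and PKP3 has 11, while DSG3 has 1. Recomputed in the same unit with the length of the longest transcript in place of the deposited length, the order in the IFN-beta libraries became JUP at 174, DSG2 at 101, DSP at 82.0, PKP3 at 75.3, DSG3 at 58.2, PKP1 at 54.8, DSC3 at 44.0, PKP2 at 26.0 and DSC2 at 6.90. On that scale the ranges of no neighbours overlapped. In the control libraries it was JUP at 165, DSG2 at 113, DSP at 78.1, PKP3 at 76.3, PKP1 at 67.8, DSG3 at 58.2, DSC3 at 51.3, PKP2 at 22.0 and DSC2 at 7.87, with overlapping ranges for DSP and PKP3 and for PKP3 and PKP1. PKP3 thus held the second place on the deposited scale and the fourth on the other one in both groups. A change between groups within 1 gene does not depend on this length.

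**Figure D1:**
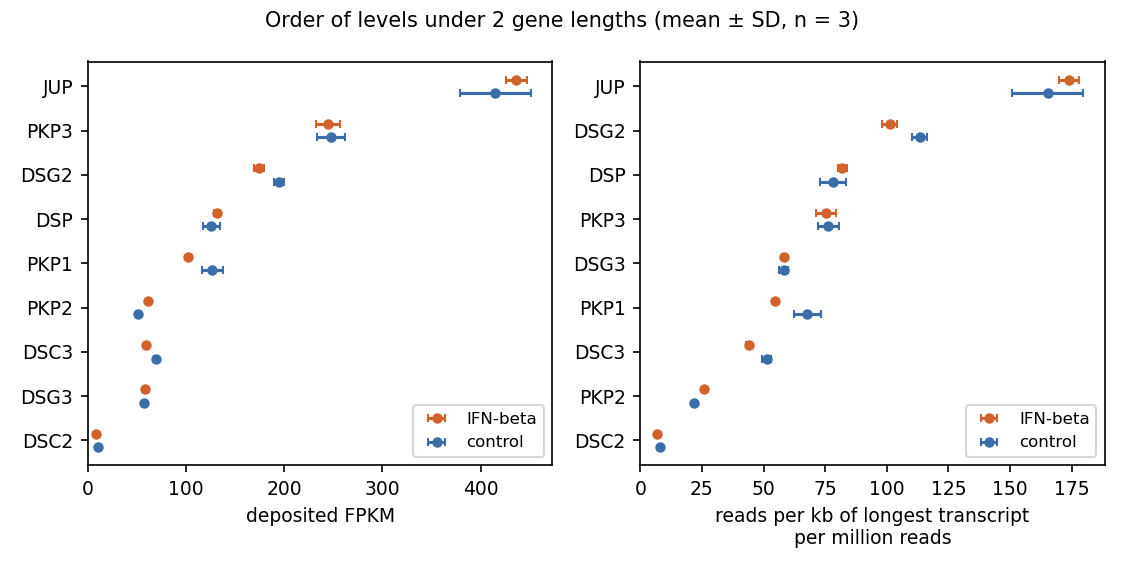
Mean level of 9 desmosome genes (rows) with SD over 3 libraries, in IFN-beta (orange) and control (blue) libraries, as deposited FPKM (left) and recomputed with the length of the longest annotated transcript, in reads per kb scaled to depth (right). JUP leads on both scales, PKP3 moves from the second place on the left to the fourth on the right, and DSC2 is lowest on both.

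The 5 cadherins of this set lie together on chromosome 18, in the order DSC3, DSC2, DSG1, DSG3 and DSG2, with DSC1 and DSG4 between them. The table places DSC3 from 30989365 to 31042815 and DSG2 from 31498177 to 31549008, a span of 559.644 kb for the cluster. The build is not stated for these coordinates and was inferred as GRCh38, where all 10 genes lie on the same chromosome in GENCODE release 29 and 7 of 10 share a start or an end with it. DSG2 and DSG3 are neighbours on the plus strand, DSG3 from 31447741 to 31478702, and of this pair DSG2 passed the test. The difference between their changes was not tested.

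DSG2, the desmoglein with the widest tissue range, was lower with IFN-beta. Its level was 179, 174 and 169 FPKM in IFN-beta replicates 1 to 3, against 193, 201 and 191 FPKM in control replicates 1 to 3. The groups did not overlap, which held for 54% of all genes tested, 25.4% with IFN-beta lower and 28.6% with IFN-beta higher. The mean fell by 10.7%, and the log2 change was -0.16 ± 0.038 (SE, limma adjusted p = 0.00857). On the opposite strand 2.76% of the exonic bases of DSG2 are shared with the antisense gene DSG2-AS1, which held between 49 and 82 reads in a library. DSG2 itself held between 15668 and 20396 reads in a library. Without knowledge of the strand used in counting, reads within the shared bases cannot be told apart.

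DSG3, the desmoglein of basal and suprabasal keratinocytes and the main target of pemphigus vulgaris autoantibodies, stood at 57.4, 58.5 and 57.2 FPKM in IFN-beta libraries, against 56.2, 59.5 and 57.1 FPKM in control libraries. The IFN-beta values lay within the range of the control values. The log2 change was 0.00 with a 95% interval from -0.08 to 0.09 (limma adjusted p = 0.97), and its sign was negative under quantile normalization, under median-of-ratios size factors and once each library's trend of level on gene length and GC content was taken out. The interval does not reach the estimated fall of DSG2 (-0.16), but it overlaps at its end with the 95% interval of DSG2, from -0.249 to -0.076. In each library the ratio of DSG2 to DSG3 gives the same contrast free of scaling between libraries. It was 3.13, 2.98 and 2.95 in IFN-beta libraries and 3.44, 3.37 and 3.34 in control libraries, with no overlap. The DSG2 values were already apart between the groups and the DSG3 values lay close together, so this ratio adds no separate evidence.

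The sequences upstream of both desmogleins are shown because the genes are adjacent, point the same way and DSG2 alone of the pair was called. Each is the stretch of 250 bases before the start of the gene (RefSeq, build GRCh38.p14, plus strand), in lower case with CG dinucleotides in capitals. The DSG2 stretch is chr18:31497927-31498176 and the DSG3 stretch is chr18:31447491-31447740.
DSG2: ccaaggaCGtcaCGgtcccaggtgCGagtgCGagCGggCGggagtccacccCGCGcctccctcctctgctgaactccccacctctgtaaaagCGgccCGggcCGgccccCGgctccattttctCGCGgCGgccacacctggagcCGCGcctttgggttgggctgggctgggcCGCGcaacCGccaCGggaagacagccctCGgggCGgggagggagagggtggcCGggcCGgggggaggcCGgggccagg
DSG3: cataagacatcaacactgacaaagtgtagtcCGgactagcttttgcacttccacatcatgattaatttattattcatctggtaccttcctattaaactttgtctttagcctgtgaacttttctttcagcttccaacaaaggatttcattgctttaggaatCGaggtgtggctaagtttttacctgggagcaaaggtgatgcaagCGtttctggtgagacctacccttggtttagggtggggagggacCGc
The DSG2 stretch holds 26 CG dinucleotides and is 75.2% G and C, while that of DSG3 holds 4 and is 42.8% G and C. The median over 35116 promoters in the same RefSeq table is 11 CG, with quartiles of 3 and 23. DSG1, near 0 here, holds 3. Of the other genes not called, DSP holds 33 and the stretches of JUP hold 13 and 17. Of the other called genes, PKP1 holds 17, DSC3 holds 18 and the stretches of DSC2 hold 19 and 12. A link of CG content to level or change was not tested. Sequences were in the table for 8 of the 10 genes, with 10 stretches in all. None was there for PKP3 or for PKP2, the only desmosome gene called higher, so neither was searched. The letters TTTC, any 2 bases and TTTC again, a form of the interferon-stimulated response element, occurred on either strand in 3.02% of all promoters and in 0 of these 10 stretches. The letters TTCNNNGAA, the core of a STAT site, occurred in 6.57% of all promoters and in 1 of the 10, at 63 bases before an alternative start of DSC2. These matches describe letters in a window and say nothing about binding.

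Both desmocollins were lower. DSC3, the main desmocollin of basal keratinocytes, stood at 60.0, 60.5 and 57.9 FPKM in IFN-beta libraries, against 69.3, 71.7 and 67.1 FPKM in control libraries. All 3 IFN-beta values lay below all control values. The mean fell by 14.3%, with a log2 change of -0.22 ± 0.040 (SE, limma adjusted p = 0.00247). DSC2, the desmocollin shared with simple epithelia and heart, stood at 8.73, 8.78 and 8.47 FPKM in IFN-beta libraries, against 9.79, 10.3 and 9.56 FPKM in control libraries, again without overlap. Its log2 change was -0.18 ± 0.059 (SE, limma adjusted p = 0.0367). The DSC2 call ended with libraries set to equal sums (limma adjusted p = 0.106). It also ended on leaving out any single IFN-beta library (limma adjusted p of 0.0819 without replicate 1, 0.0761 without replicate 2 and 0.104 without replicate 3). Leaving out a control library gave a limma adjusted p of 0.0639 for replicate 1 and 0.124 for replicate 2, which end it as well. The limma adjusted p of DSC2 ran from 0.00257 to 0.124 over 17 other settings and it was called in 10 of them.

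Neither the desmoplakin nor the plakoglobin gene passed the test. DSP, which encodes the plakin that anchors keratin, stood at 135, 130 and 130 FPKM in IFN-beta libraries, against 132, 129 and 116 FPKM in control libraries. The groups overlapped, and control replicate 3 was the lowest of the 6. The log2 change was 0.07 with a 95% interval from -0.05 to 0.19 (limma adjusted p = 0.29), and it was 0.02 without control replicate 3 and -0.01 with the trend on length and GC taken out. JUP, which encodes plakoglobin, a close relative of beta-catenin found in desmosomes and adherens junctions, stood at 431, 430 and 448 FPKM in IFN-beta libraries, against 446, 423 and 375 FPKM in control libraries. Again the groups overlapped and control replicate 3 was lowest. The log2 change of JUP was 0.08 with a 95% interval from -0.06 to 0.21 (limma adjusted p = 0.34), and without control replicate 3 it was 0.01 (limma adjusted p = 0.92). Both intervals exclude the falls of DSC3 (-0.22) and PKP1 (-0.30).

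The plakophilins, armadillo proteins that cluster cadherins and recruit desmoplakin, did not change together. PKP1, the plakophilin of stratified epithelium whose loss in humans causes skin fragility, had the largest fall of the 10 genes. It stood at 104, 101 and 103 FPKM in IFN-beta libraries, against 136, 129 and 115 FPKM in control libraries. The groups did not overlap, although control replicate 3 lay nearest to the IFN-beta libraries. The mean fell by 19.2%, with a log2 change of -0.30 ± 0.057 (SE, limma adjusted p = 0.00287). The log2 change was -0.37 without control replicate 3 (limma adjusted p = 0.000119) and ran from -0.40 to -0.25 over 17 other settings, with a call in all 17. PKP1 lies on chromosome 1 from 201283452 to 201332993.

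PKP2, the plakophilin with the broadest expression, mutated in arrhythmogenic cardiomyopathy and also found in the nucleus, was the only desmosome gene called higher. It stood at 61.2, 60.2 and 61.2 FPKM in IFN-beta libraries, against 52.1, 50.2 and 52.0 FPKM in control libraries. Every IFN-beta library lay above every control library. The mean was 18.3% higher, with a log2 change of 0.24 ± 0.036 (SE, limma adjusted p = 0.000875). The change ran from 0.20 to 0.29 over 17 other settings and was called in all 17. PKP2 lies on chromosome 12 from 32790755 to 32896777.

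PKP3, which is found in all layers of the epidermis, stood at 241, 234 and 258 FPKM in IFN-beta libraries, against 259, 252 and 232 FPKM in control libraries. The groups overlapped over most of their range. The log2 change was -0.02 with a 95% interval from -0.14 to 0.10 (limma adjusted p = 0.81), and its sign was positive with libraries set to equal sums.

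**Figure D2:**
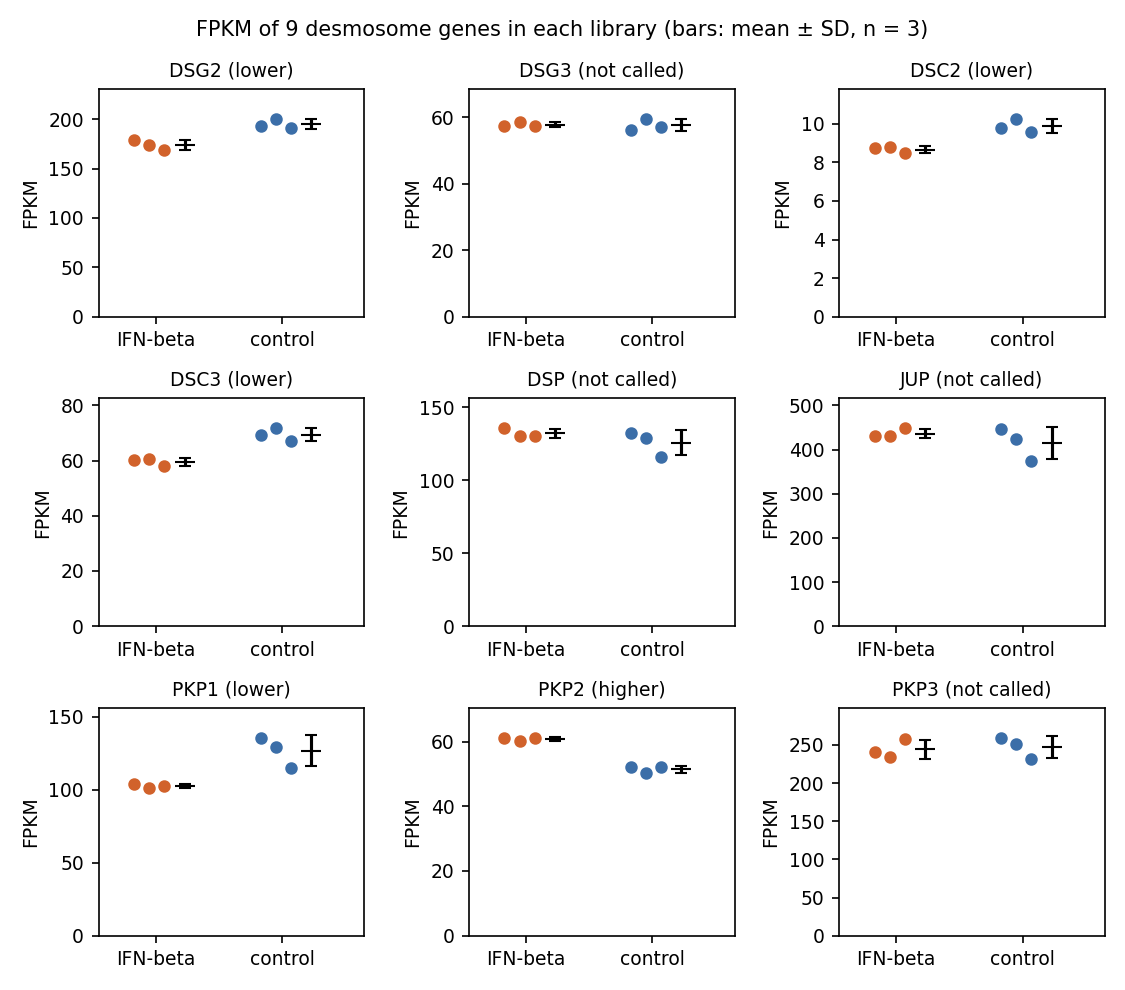
FPKM (vertical axis, from 0) of 9 desmosome genes in each of 3 IFN-beta libraries (orange) and 3 control libraries (blue), with mean and SD beside them and the limma call in each title. The groups are apart in DSG2, DSC2, DSC3, PKP1 and PKP2, and control replicate 3 (rightmost blue point) is low in DSP, JUP, PKP1 and PKP3.

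**Figure D3:**
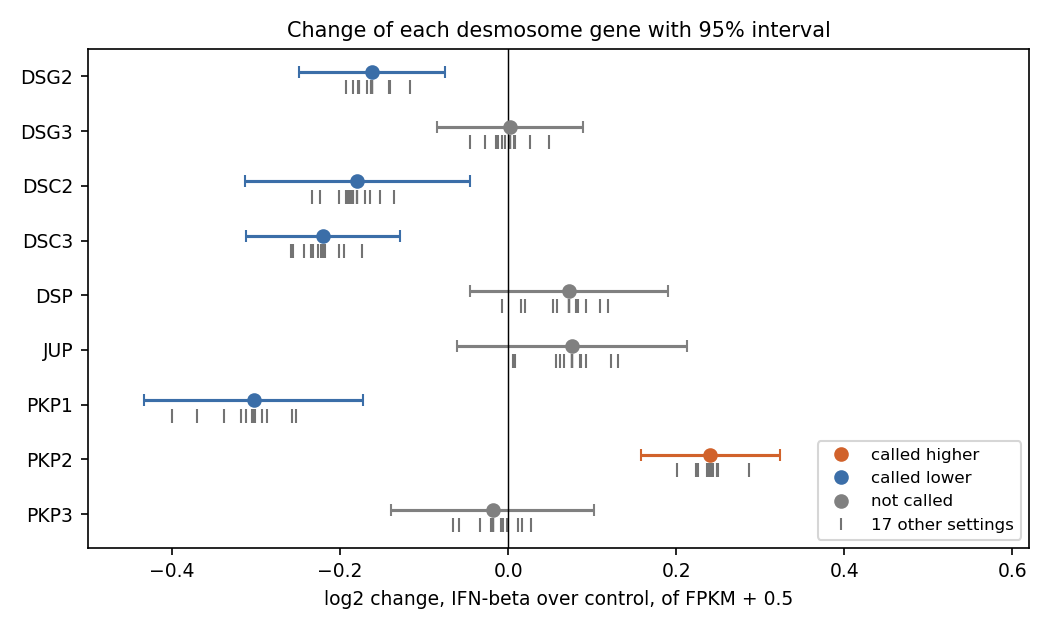
Log2 change, IFN-beta over control, of each desmosome gene with its 95% interval from limma (points and bars), and the values under 17 other settings (ticks). PKP2 stays between 0.20 and 0.29, PKP1 between -0.40 and -0.25, and the intervals of DSG3, DSP, JUP and PKP3 include 0.

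The balance between paralogs can be read within each library, which removes the scaling between libraries. PKP2 relative to PKP1 was 0.590, 0.597 and 0.597 in IFN-beta libraries and 0.384, 0.388 and 0.452 in control libraries. Both genes were already apart between the groups, in opposite directions, so this ratio could not overlap and adds no separate evidence. PKP1 made up 25.1% ± 0.724 of the summed plakophilin FPKM in IFN-beta libraries and 29.7% ± 0.772 in control libraries (SD, n = 3 each). For PKP2 these shares were 14.9% ± 0.390 and 12.1% ± 0.808, and for PKP3 they were 59.9% ± 1.11 and 58.2% ± 0.186. Per base of the longest transcript PKP1 held 35.1% with IFN-beta and 40.8% in control, PKP2 16.7% and 13.3%, and PKP3 48.2% and 45.9%. DSG2 made up 75.1% ± 0.591 of the desmogleins in IFN-beta libraries and 77.2% ± 0.253 in control libraries. DSC3 made up 87.3% ± 0.0417 of the 2 desmocollins with IFN-beta and 87.5% ± 0.0677 in control, a difference of -0.25 percentage points. The groups did not overlap in any of these 5 shares. The plakophilin shares are tied to each other and all 5 are built from the levels already given, so they are not 5 separate results. They are given as descriptions, with no test.

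**Figure D4:**
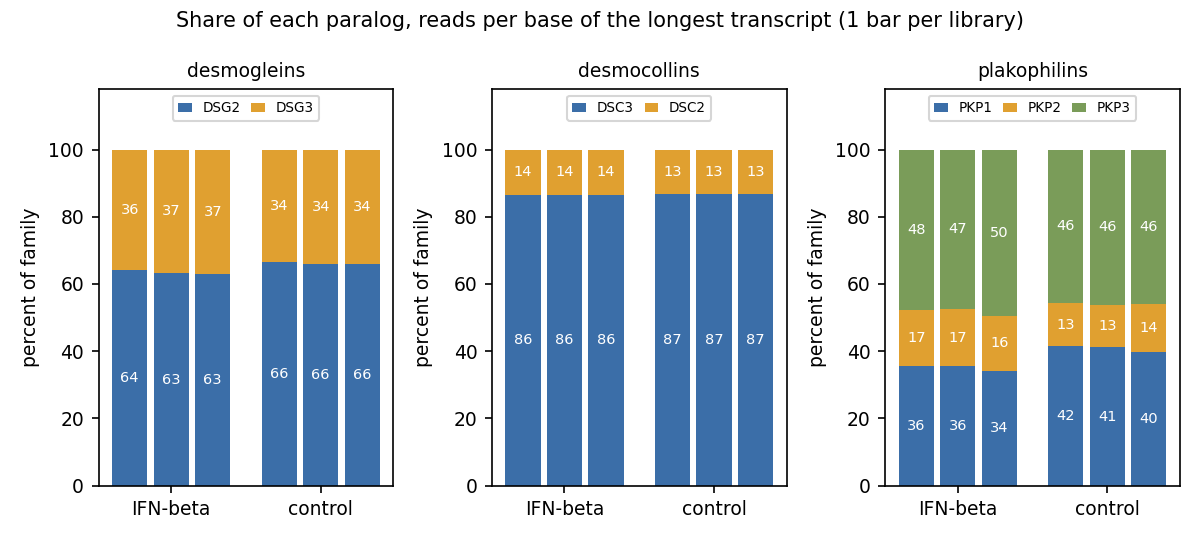
Share of each paralog in its family (vertical axis, percent), from reads per base of the longest annotated transcript, with 1 bar per library, IFN-beta at the left of each panel and control at the right. PKP1 holds 35.1% on average with IFN-beta, against 40.8% in control, while the desmocollin shares differ by less than 1 point.

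The spread within a group was not the same for all of the genes. Control replicate 3 was the lowest control library in 7 of the 9 tested genes and the highest in 0. Among the IFN-beta libraries replicate 1 was lowest in 0 genes, replicate 2 in 4 and replicate 3 in 5. No such count was made over all genes tested, so whether this is particular to the desmosome genes was not tested. For JUP the SD of the control libraries was 36.2 FPKM, against 10.5 FPKM in the IFN-beta libraries, and for PKP1 it was 10.5 FPKM, against 1.35 FPKM. For DSP the control SD was 8.65 FPKM, against 3.06 FPKM with IFN-beta, and for PKP3 it was 14.3 FPKM, against 12.6 FPKM. The longest transcripts of JUP, PKP1 and PKP3 are 61.5%, 56.4% and 66.7% G and C, and those of DSP and PKP2 47.9% and 46.6%. Those of the 5 cadherins lie between 38.9% for DSC2 and 42.4% for DSG3. A link of spread to G and C content was not tested. With each library's trend on length and GC taken out, the log2 change was -0.40 for PKP1, -0.26 for DSC3, -0.22 for DSC2, -0.19 for DSG2, 0.22 for PKP2, -0.05 for DSG3 and 0.01 for JUP, and the same 5 genes were called.

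Other desmosome genes were read from a list of 8. For this list and those that follow, the shares beside the counts are 22.5% higher and 19.9% lower over all genes tested. Of the 5 tested, PERP and PKP4 fell, KAZN rose, and PPL and EVPL did not pass. PERP, a tetraspan protein and p63 target needed for desmosome assembly, averaged 59.3 ± 2.52 FPKM in IFN-beta libraries and 79.1 ± 2.89 FPKM in control libraries (SD, n = 3 each), a log2 change of -0.41 ± 0.046 (SE, limma adjusted p = 0.00014). That change was larger than any among the 10 desmosome genes. PKP4, an armadillo relative of the plakophilins, had a log2 change of -0.15 (limma adjusted p = 0.022), and its call ended with libraries set to equal sums, without the eBayes trend, without IFN-beta replicate 2 or 3 and without control replicate 2. KAZN, which encodes the periplakin partner kazrin, had a log2 change of 0.41 at 4.04 FPKM with IFN-beta and 2.92 FPKM in control, and its call ended with the trend on length and GC taken out (limma adjusted p = 0.0613). The plakin gene PPL had a log2 change of 0.02 (limma adjusted p = 0.80), which was negative under quantile normalization and without control replicate 3. With the trend on length and GC taken out it was -0.09 and passed (limma adjusted p = 0.0363).

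The adherens junction, the actin-linked junction beside the desmosome, had 4 of 10 genes higher and 2 lower. NECTIN2, a cell adhesion molecule, averaged 40.0 ± 0.798 FPKM with IFN-beta and 27.3 ± 2.49 FPKM in control (log2 change 0.55, limma adjusted p = 0.00021). CDH3, the P-cadherin gene, averaged 305 ± 6.23 FPKM with IFN-beta and 239 ± 15.9 FPKM in control (log2 change 0.36, limma adjusted p = 0.00057). VCL, which encodes the actin linker vinculin, had a log2 change of 0.19, and its call ended in 5 of 17 other settings, among them those without IFN-beta replicate 2 or control replicate 2. NECTIN1 had a log2 change of -0.18 (limma adjusted p = 0.083), which did not pass. It passed in 3 of 17 other settings, at -0.28 without control replicate 3 (limma adjusted p = 0.00153), at -0.19 with limma voom on recovered reads (limma adjusted p = 0.0227) and at -0.26 with the trend on length and GC taken out (limma adjusted p = 0.00405). The median log2 change of the 10 genes was 0.01.

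Genes of the hemidesmosome, which anchors basal cells to the basement membrane, had 3 of 6 genes higher and 1 lower. COL17A1, its transmembrane collagen, averaged 489 ± 12.4 FPKM with IFN-beta and 340 ± 28.1 FPKM in control (log2 change 0.53, limma adjusted p = 0.00013). The integrin chains ITGA6 and ITGB4 had log2 changes of 0.26 and 0.22, and the ITGB4 call ended in 7 of 17 other settings, among them those without IFN-beta replicate 1, IFN-beta replicate 3 or control replicate 2. The ITGB4 change was 0.15 without control replicate 3, where it passed (limma adjusted p = 0.0455), and 0.10 with the trend on length and GC taken out, where it did not (limma adjusted p = 0.0657). The plakin DST had a log2 change of 0.05 (limma adjusted p = 0.36).

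Of the keratins, whose filaments end at desmosomes, 9 of 10 were tested, with 4 higher and 2 lower. KRT10, a keratin of differentiating cells, fell to 21.7 ± 2.09 FPKM with IFN-beta, against 49.2 ± 1.84 FPKM in control (log2 change -1.16, limma adjusted p = 2.94e-06). The basal keratin KRT5 had a log2 change of -0.51, KRT17 one of 0.37 and KRT14 one of 0.09, which passed with equal sums (limma adjusted p = 0.0366) and with quantile normalization (limma adjusted p = 0.000526). Keratin genes have near-identical copies and pseudogenes, so their single levels are uncertain.

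Transcription factors known to act on junction genes had 6 of 9 tested, with 4 higher and 1 lower. KLF4, a factor of epidermal differentiation, averaged 8.17 ± 0.815 FPKM with IFN-beta and 3.91 ± 0.219 FPKM in control (log2 change 0.97, limma adjusted p = 4.60e-05). GRHL1, known to activate DSG1 transcription, had a log2 change of 0.47, and TP63, the master factor of stratified epithelium and an activator of PERP, one of 0.41. TP63 stood at 174 ± 5.01 FPKM with IFN-beta and 131 ± 10.1 FPKM in control while PERP was lower. A link of TP63 level to PERP level was not tested. GRHL3 had a log2 change of -0.08 (limma adjusted p = 0.45).

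Of 8 genes listed as proteases and kinases that act on desmosomes, among them the protease inhibitor gene SPINK5, 1 was higher and 4 were lower. KLK5, a kallikrein that cleaves corneodesmosomal proteins, averaged 64.6 ± 3.32 FPKM with IFN-beta and 101 ± 5.20 FPKM in control (log2 change -0.64, limma adjusted p = 2.27e-05). Its inhibitor gene SPINK5 had a log2 change of -0.42. PRKCA, a kinase that weakens desmosomal adhesion, had one of -0.49 at 1.00 FPKM with IFN-beta and 1.60 FPKM in control, and its call ended without IFN-beta replicate 2, without control replicate 1 and with no filter on low values. ADAM10, a sheddase of cadherins, had a log2 change of 0.04 (limma adjusted p = 0.32).

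**Figure D5:**
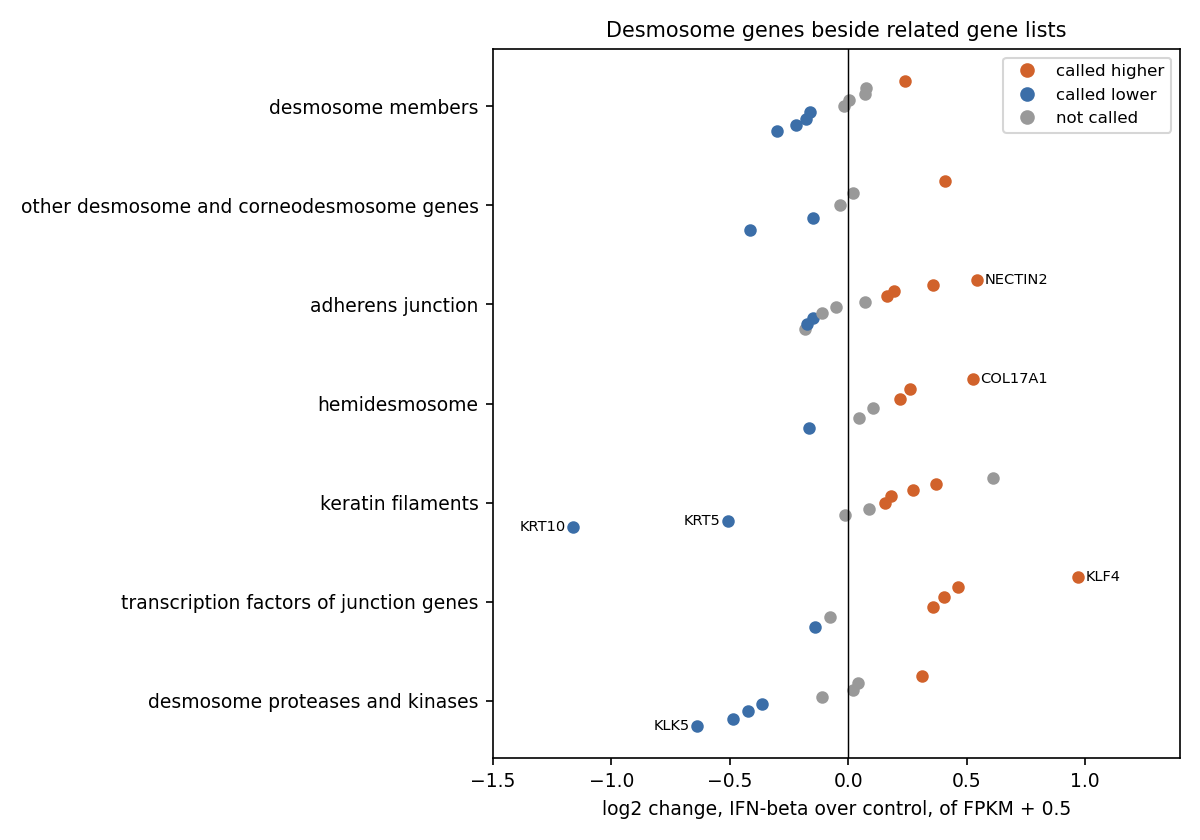
Log2 change, IFN-beta over control (horizontal axis), of each tested gene in the desmosome set and in 6 related lists (rows), coloured by limma call, with names at called changes over 0.5. The desmosome genes lie between -0.30 and 0.24, while COL17A1 (0.53), NECTIN2 (0.55), KLF4 (0.97) and KRT10 (-1.16) lie further out.

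Among the 44 tested genes of these 6 lists, those whose log2 level over the 6 libraries was most like PKP2 were KRT17, SNAI2 and SRC, with Pearson r of 0.98 for each. Those most like PKP1 were KRT5, KLK5 and PKP4, with r of 0.96, 0.95 and 0.94. These values describe 6 libraries in 2 groups, where a shared difference between the groups is enough for a high r.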

How the data were processed

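RNA-seq libraries of HaCaT cells, 3 with IFN-beta and 3 controls, were grouped by sample title, where 1 IFN-beta title is spelled with an extra letter. The authors deposited 1 table of FPKM values with gene coordinates. Per the labels' protocols CLC Genomics Workbench 11.0.1 was listed without its step, and the aligner, the counting program, its use of strand and the gene lengths were not stated in what was read here. The builds were mouse builds per the submitters' processing notes, whereas the table's identifiers are human.

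Whole reads and gene lengths were recovered from the steps of the deposited FPKM for 100% of 30507 genes with a value above 0, within 0.0001 reads plus 1e-08 of the value. The recovered reads summed to over 99.7% of each library total. Tests were two-sided in limma 3.58.1 (R 4.3.3, with lmFit and a trended eBayes) on log2(FPKM + 0.5), over genes with a mean of at least 0.5 FPKM, with Benjamini-Hochberg adjustment over all 15163. Fold changes on that scale understate the change of low genes. The main fit was also run on simulated data with the same dispersion for every gene and few changed genes. Those settings differ from these data, so that run does not establish error rates here. Python 3.11.15 made the tables and figures.

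Genes, lists and tests were chosen with earlier results of these data known. Named are the 10 desmosome genes, interferon genes, and from each other list up to 3 called genes with the largest change and the 1 gene with the highest level that did not pass. EVPL, DSC1, DSG4, the antisense gene and the markers were named after their values were seen. Some listed genes are not reported here. Alternatives changed the pseudocount (0.1 and 1), the filter (none, or a mean of 2 FPKM), the scaling, the eBayes trend, the replicate block, the libraries and the test (limma voom on recovered reads). Removal of each library's trend on length and GC content, and the length of the longest transcript, were added after seeing the data.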

Additional observations from a re-analysis of the deposited data

How the results depend on the processing

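Over 17 other settings 1 desmosome gene was called higher in each, and 3 or 4 were called lower, with DSC2 the gene that varied. The calls of PKP1, PKP2, DSC3 and DSG2 held in all 17. All genes called numbered 6431, between 5527 and 6890 under the other settings and between 5166 and 6162 on leaving out 1 library. Same-numbered libraries of the groups did not deviate together (r of -0.05, -0.10 and -0.06 across genes). For libraries of unlike number r lay between 0.005 and 0.059. Deviations from the mean of so few libraries are tied to each other, so these values cannot settle whether the numbers pair libraries. With the replicate block 5817 genes were called, and the DSC2 call ended (log2 change -0.18, limma adjusted p = 0.071).

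Among the named genes signs turned only in those that did not pass. DSG3 became -0.028 after quantile normalization, -0.012 with median-of-ratios size factors and -0.046 with the trend on length and GC taken out, and lay between -0.015 and 0.026 on leaving out 1 library. PKP3 became 0.028 with libraries set to equal sums and lay between -0.065 and 0.016 on leaving out 1 library. DSP became -0.0074 with the trend on length and GC taken out. PPL became -0.026 after quantile normalization and -0.092 with that trend taken out, and lay between -0.034 and 0.069 on leaving out 1 library.

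Shares moved with the unit. As shares of recovered reads, with IFN-beta and then control, DSG2 held 64.7% and 67.3%, DSC3 78.3% and 78.7%, PKP1 48.0% and 54.4%, PKP2 18.0% and 14.0%, and PKP3 34.0% and 31.6%. Per base of the longest transcript they were 63.5% and 66.1%, 86.4% and 86.7%, 35.1% and 40.8%, 16.7% and 13.3%, and 48.2% and 45.9%.

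Counts of the small lists moved by 1 or 2 genes. Other desmosome genes: 1 lower with libraries set to equal sums and without the eBayes trend, and 4 lower and 0 higher with the trend on length and GC taken out. Adherens junction: 2 higher with no filter, after quantile normalization and without the trend, and 0 lower after rescaling. Hemidesmosome: 0 lower with no filter, after rescaling, without the trend and with the replicate block. Transcription factors: 0 lower after rescaling and without the trend. Proteases and kinases: 2 lower with no filter. With single libraries left out the ranges were 1 to 2 lower for other desmosome genes, 2 to 4 higher and 1 to 3 lower for the adherens junction, 0 to 1 lower for the hemidesmosome and the transcription factors, and 2 to 5 lower for proteases and kinases. The causes were not tested.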
